A study of Homo sapiens with 21 samples.

Results

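The genes described here are 9 secreted glycoproteins of the extracellular matrix: FN1, SPP1, TNC, SPARC, EFEMP1, EFEMP2, FBN1, LAMB3 and NID1. They were followed through every probe set that the annotation of the HG-U133 Plus 2.0 array pairs with their symbols alone, which gave 26 probe sets for 9 of the 19775 genes on the array. For the tests across genes, each gene was represented by its brightest probe set on average. On all 21 arrays these 9 probe sets lay above the array median, and 23 of the 26 probe sets passed the filter on dim values. The cells were HEY, an established human ovarian cancer line. They were transfected by lipid reagent with mir-429 or with a synthetic negative control miRNA and sampled at 24, 48 and 144 h, and untransfected cells were sampled at 0 h. Each of the 7 groups had 3 arrays, labelled as biological replicates. Whether they came from cultures grown apart is not stated, and a p-value here is set against the spread among arrays of a group. No untransfected cells were sampled at 24, 48 or 144 h, so transfection and time in culture cannot be told apart where transfected cells are set against untransfected ones.

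Fibronectin, encoded by FN1, is assembled by cells into fibrils through integrin receptors and serves as a scaffold for other matrix proteins. Fibrillin-1 (FBN1) builds microfibrils, with which the fibulins EFEMP1 (fibulin-3) and EFEMP2 (fibulin-4) associate. Osteopontin (SPP1), tenascin-C (TNC) and SPARC are matricellular proteins, which act on how cells attach to matrix more than as structure, while LAMB3, a chain of laminin-332, and nidogen-1 (NID1) belong to the basement membrane. Fibronectin is a classical marker of the mesenchymal state, and the miR-200 family, which includes miR-429, is known for repressing ZEB1 and ZEB2, transcription factors that hold epithelial genes down.

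The mature microRNAs of the family are shown because a microRNA finds its targets mainly through its seed. The sequences are RefSeq's for human GRCh38.p14, with the seed, bases 2 to 8 from the 5′ end, in capitals.
hsa-miR-429: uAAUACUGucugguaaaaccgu
hsa-miR-200b-3p: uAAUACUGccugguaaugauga
hsa-miR-200c-3p: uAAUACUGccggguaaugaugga
hsa-miR-200a-3p: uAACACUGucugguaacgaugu
hsa-miR-141-3p: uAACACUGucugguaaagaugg
miR-429 shares its seed with miR-200b and miR-200c. The seed of miR-200a and miR-141 differs from it by U4C, counted from 1 at the 5′ end with the base of miR-429 written before the position.

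The 48 h arrays stood apart in a sign of RNA quality. The 3′ minus 5′ log2 signal averaged over the GAPDH and ACTB control transcripts was 8.55 in mir-429 cells and 7.83 in control cells at 48 h. At 24 h it was 2.87 in mir-429 cells and 4.21 in control cells, at 144 h 3.35 in mir-429 cells and 3.90 in control cells, and before transfection 3.15. A fit with this difference as a covariate is given with the members' calls that it changes. On single arrays it was 7.23 to 8.47 in control and 8.45 to 8.73 in mir-429 cells at 48 h, and 2.79 to 3.76 before transfection. At 24 h it was 2.54 to 3.25 with mir-429 and 4.004 to 4.43 with control miRNA. The covariate is thus hardly separable from these groups, and a call lost with it does not show whether RNA quality played a part. The keratins KRT7, KRT8 and KRT18, vimentin and the Mullerian markers PAX8 and WT1 were above the array median on all 21 arrays, whereas KRT19 was above it on 2, and EPCAM, CDH1 and MUC16 on none. None of the 5 measured leukocyte markers passed the filter. Of 7 fibroblast markers, COL1A1 and PDGFRB passed, and LUM, PDGFRA, COL1A2 and COL3A1 were below the array median on every array. The summed level (log2) of the fibroblast list was lower with mir-429, without overlap, at all 3 times, as FN1 and TNC were at 24 and 48 h. It was 8.204 to 8.37 with mir-429 and 8.73 to 8.83 with control miRNA at 24 h, 7.50 to 8.07 with mir-429 and 8.32 to 8.56 with control miRNA at 48 h, and 8.36 to 8.51 with mir-429 and 8.74 to 8.89 with control miRNA at 144 h. COL1A1, its brightest gene, carried most of this sum, with means of 8.01 with mir-429 and 8.57 with control miRNA at 24 h. At 48 h PDGFRB and COL1A2 were also lower with mir-429. DCN, LUM, PDGFRA and COL3A1 were slightly higher there, with means below every array median. The sum therefore does not describe the list as a whole. Of 6 endothelial markers 3 passed, and CDH5, the brightest, carried most of their sum. That sum at 24 h was 7.67 to 7.93 with mir-429 and 7.91 to 8.19 with control miRNA, against 9.82 to 9.98 in untransfected cells, and at 144 h it was 10.23 to 10.30 with mir-429 and 9.27 to 9.81 with control miRNA. PECAM1, VWF, TEK and ERG were above the array median on 3 arrays or fewer. The part of these markers in the members' values was not tested.

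**Figure D1:**
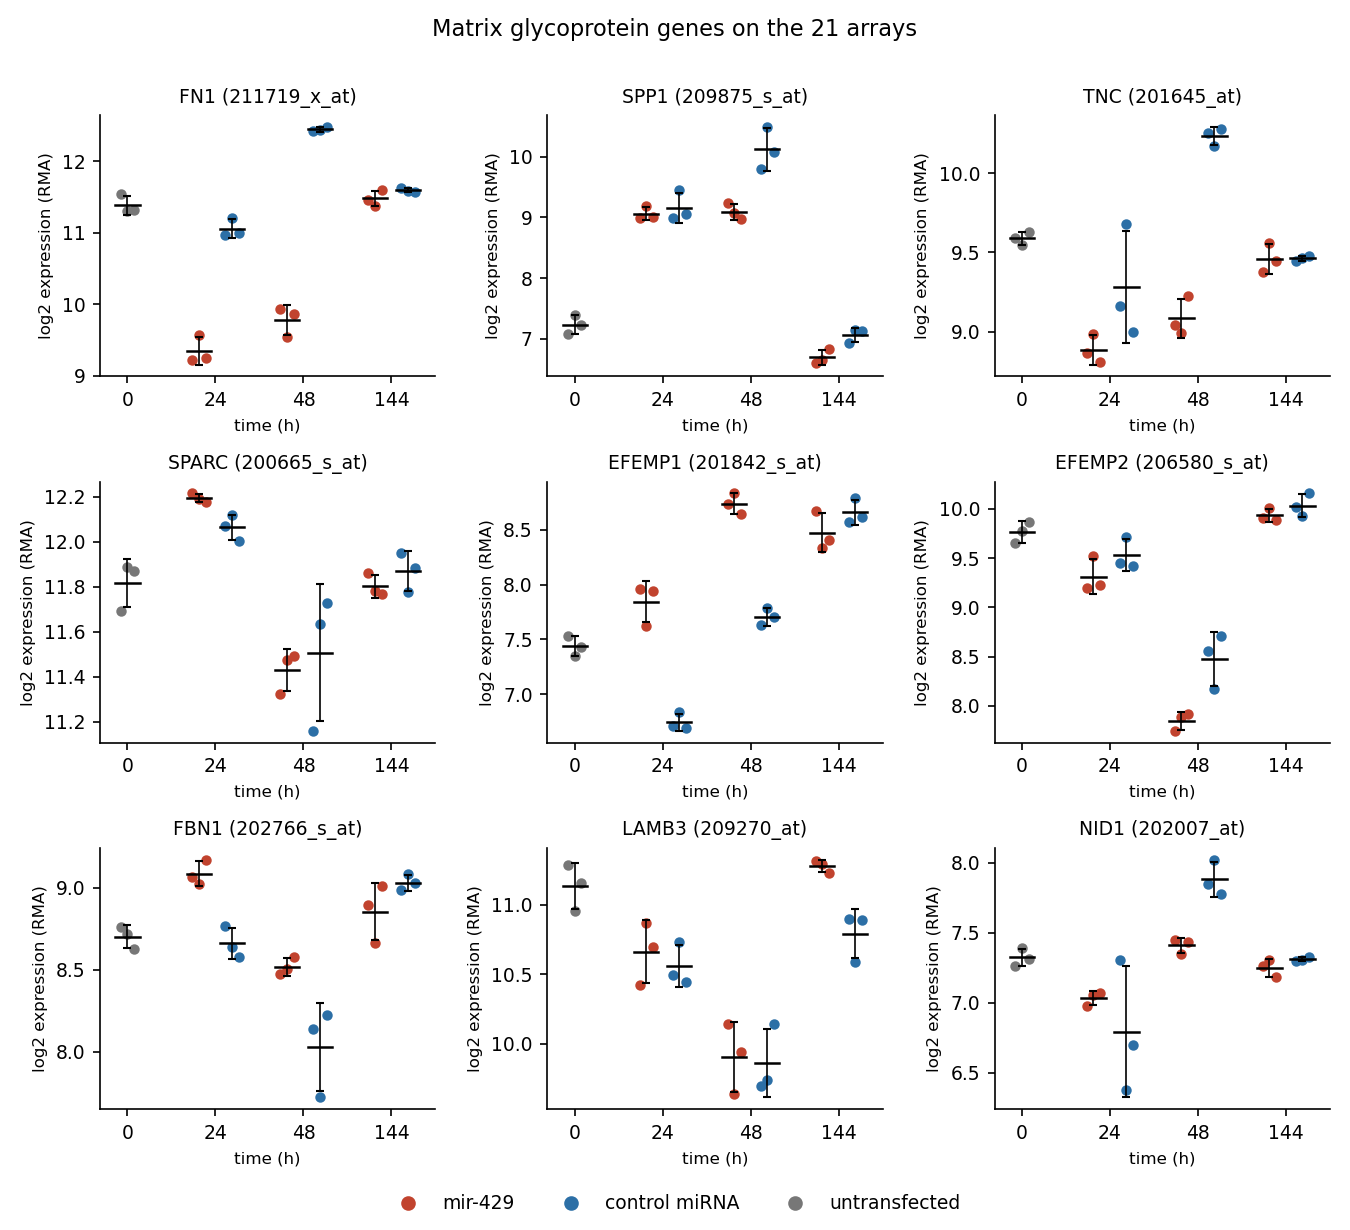
Level of each of the 9 genes on every array (points; y axis, RMA log2 expression of the named probe set; x axis, time in h), with the mean and SD of the 3 arrays of a group in black. FN1 lay between 9.23 and 9.58 in mir-429 cells at 24 h, where control cells lay between 10.96 and 11.21, and EFEMP1 ran the other way.

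The comparison of mir-429 with control cells asked how the level of each matrix gene differed after mir-429 at each time. Fibronectin was lower by a wide margin at 24 and 48 h and tenascin-C was lower at both times, while fibulin-3 and fibrillin-1 were higher at both. At 48 h osteopontin, fibulin-4 and nidogen-1 were lower as well. SPARC and LAMB3 were not called at either time, and at 144 h no member was called. In bulk RNA a lower level in every cell and a loss of the cells that express a gene most cannot be told apart.

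Counted, 4 of the 9 members passed a limma adjusted p of 0.05 at 24 h, 2 higher and 2 lower, where 26.6% of all 12879 genes tested were called, 15.0% higher and 11.6% lower. At 48 h 7 of 9 were called, 2 higher and 5 lower, where 20.6% of all genes were called, 9.32% higher and 11.3% lower. The share at 24 h was thus not far from the background and that at 48 h above it. At 144 h limma called 0 of 9, where 5.85% of all genes were called, 1.48% higher and 4.37% lower. There 2 members, LAMB3 and SPP1, had an unadjusted p under 0.05, and the other fits called between 0 and 2. The members' median log2 change was 0.11 at 24 h, beside -0.02 over all genes tested. It was -0.47 beside -0.01 at 48 h, and -0.10 beside -0.04 at 144 h.

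**Figure D2:**
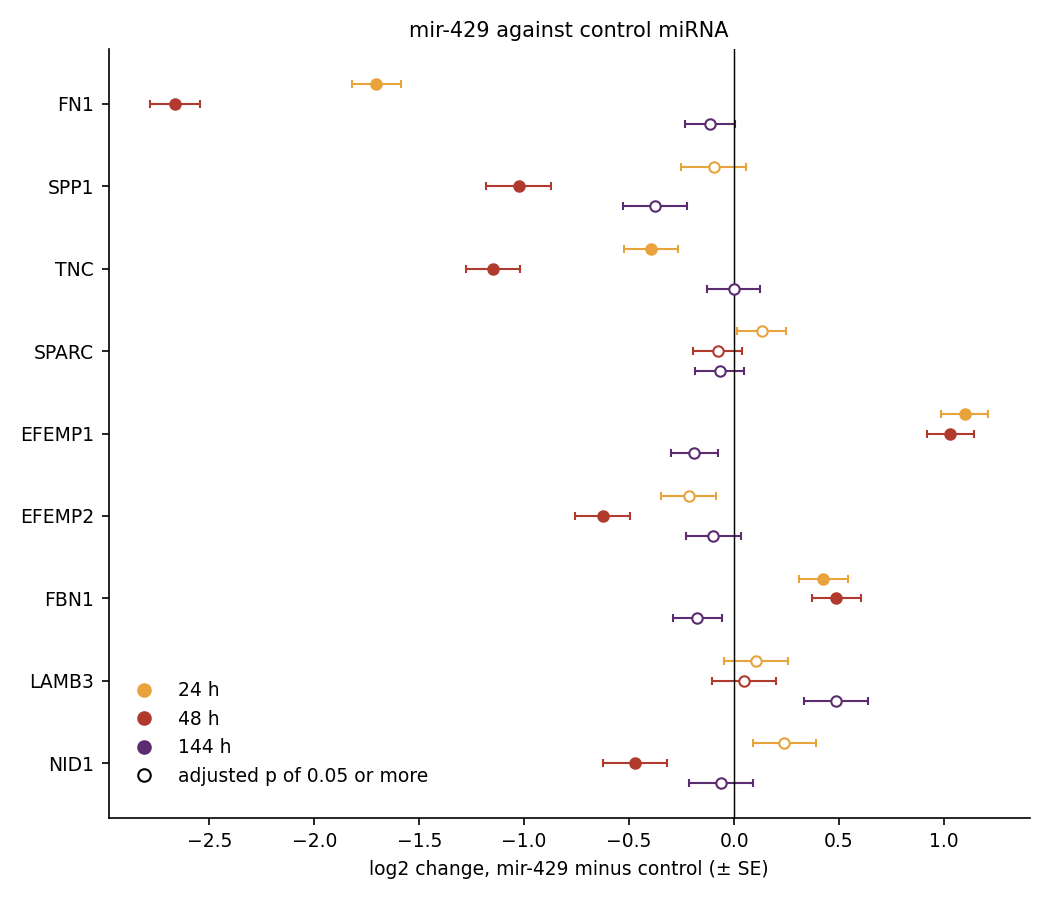
Log2 change of mir-429 over control cells (x axis; point and SE from limma, n = 3 arrays per group) for each gene (y axis) at 24, 48 and 144 h; open points have an adjusted p of 0.05 or more. FN1 lies at -1.70 and -2.66 at 24 and 48 h and EFEMP1 at 1.10 and 1.03, and all 9 genes are open at 144 h.

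Fibronectin is the gene of the set with the widest separation. At 24 h FN1 (log2 expression, probe set 211719_x_at) was at 9.23, 9.58 and 9.26 on the mir-429 arrays, against 10.96, 11.21 and 10.997 on the control arrays. It was at 9.93, 9.54 and 9.87 on the mir-429 arrays at 48 h, against 12.42, 12.44 and 12.48 on the control arrays. The groups were far from overlapping at either time, and the control arrays at 48 h were the highest of all. FN1 was 3.26-fold lower at 24 h (log2 change -1.70 ± 0.12 SE, limma adjusted p = 3.13e-08) and 6.33-fold lower at 48 h (-2.66 ± 0.12, adjusted p = 8.91e-11). At 144 h it was at 11.46, 11.38 and 11.59 on the mir-429 arrays, against 11.63, 11.58 and 11.58 on the control arrays, which overlap. The change there was -0.12 ± 0.12 (adjusted p = 0.663). In the order of the 7 group means FN1 was highest in control cells at 48 h (12.44) and then, with arrays that overlap between neighbours, in control cells at 144 h (11.59), mir-429 cells at 144 h (11.48) and untransfected cells (11.39). Control cells at 24 h followed at 11.06, and mir-429 cells at 48 h (9.78) and 24 h (9.35) came last and overlapped each other. The calls at 24 and 48 h held in each of 18 and 17 other fits, with log2 changes of -1.82 to -1.10 and -2.74 to -2.05. With the 3′ to 5′ covariate FN1 changed by -1.62 ± 0.18 at 24 h and -2.71 ± 0.14 at 48 h.

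The remaining FN1 probe sets show which signals move together. The 3 other bright ones, 216442_x_at, 210495_x_at and 212464_s_at, changed by -1.58, -1.65 and -1.68 at 24 h and by -2.63, -2.70 and -2.76 at 48 h, and limma called each at both times (adjusted p of 7.79e-07 or less). The 3 dim ones, 1558199_at, 214701_s_at and 214702_at, were not called at 24 h (-0.23, -0.18 and -0.67) and were lower at 48 h (-1.01, -0.90 and -1.66). The mir-429 means of 214701_s_at (3.63) and 214702_at (2.91) at 48 h lay below every array median, so the sizes of those changes are uncertain. At 144 h 1558199_at alone among the 23 member probe sets was called, at -0.87 ± 0.24 (adjusted p = 0.0481). Its arrays read 3.07, 3.14 and 4.07 with mir-429, and the lowest control array lay below the last of these, so the groups overlap. It lay above the array median on 15 of 21 arrays, and its mir-429 mean at 144 h, 3.43, was below every array median.

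The promoters of FN1 and SPP1 are printed because both genes were lower in mir-429 than in control cells at 48 h, while of this pair only FN1 was called at 24 h. Each window holds the 250 bases before and the 50 bases after the transcript start in RefSeq (GRCh38.p14), 5′ to 3′ on the gene's strand. Both strands were searched for 4 motifs, and capitals mark the matches in these windows. The E-box that ZEB factors bind was searched as CACCTG, and the site of the AP-1 factors as TGANTCA. The cyclic AMP response element was searched as TGACGTCA. The letters for a TATA box were TATAAA.
FN1, chr2:215436019-215436318, minus strand: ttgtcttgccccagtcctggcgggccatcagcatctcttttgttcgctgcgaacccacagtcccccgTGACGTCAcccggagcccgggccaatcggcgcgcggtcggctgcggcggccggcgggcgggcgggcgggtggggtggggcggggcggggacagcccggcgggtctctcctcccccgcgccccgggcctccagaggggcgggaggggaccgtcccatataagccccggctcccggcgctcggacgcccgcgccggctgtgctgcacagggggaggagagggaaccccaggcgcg
SPP1, chr4:87975464-87975763, plus strand: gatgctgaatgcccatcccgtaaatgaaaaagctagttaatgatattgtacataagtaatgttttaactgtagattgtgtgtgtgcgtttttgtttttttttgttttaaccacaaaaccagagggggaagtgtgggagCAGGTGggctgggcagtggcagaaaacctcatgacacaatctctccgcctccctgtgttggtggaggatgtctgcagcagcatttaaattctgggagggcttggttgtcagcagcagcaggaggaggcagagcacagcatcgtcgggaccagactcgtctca
The FN1 window holds TGACGTCA, beginning 183 bases before the start, a sequence that 1.85% of 35116 promoter windows of the same length hold. The SPP1 window holds CACCTG on the opposite strand, 112 bases before the start, which 20.6% of the windows hold. RefSeq entries were at hand for 8 members, with 10 windows in all. The E-box was found in 2 of the 8, SPP1 and LAMB3. The AP-1 site was found in LAMB3 and in 7.71% of all windows. The exact letters TATAAA were found in no member and in 11.5% of all windows. Other forms of a TATA box were not searched for, so these promoters may still hold one.

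Among the microfibril proteins fibulin-3 moved against fibronectin. EFEMP1 (201842_s_at) was at 7.96, 7.63 and 7.94 on the mir-429 arrays at 24 h, against 6.71, 6.84 and 6.69 on the control arrays. At 48 h it was at 8.74, 8.83 and 8.64 with mir-429, against 7.63, 7.79 and 7.70 with control miRNA. Every mir-429 array was above every control array at both times. EFEMP1 was 2.14-fold higher at 24 h (1.10 ± 0.11, limma adjusted p = 1.99e-06) and 2.04-fold higher at 48 h (1.03 ± 0.11, adjusted p = 2.75e-06). At 144 h the groups overlapped, at 8.67, 8.33 and 8.41 with mir-429 and 8.57, 8.79 and 8.62 with control miRNA (-0.19 ± 0.11, adjusted p = 0.376). The highest means were 8.74 with mir-429 at 48 h, 8.66 with control miRNA at 144 h and 8.47 in mir-429 cells at 144 h, neighbours whose arrays overlapped, and the lowest was 6.75 in control cells at 24 h. A second probe set, 201843_s_at, was higher by 1.41 at 24 h and 1.58 at 48 h (adjusted p = 0.000271 and 7.64e-05). Its control mean at 24 h, 3.43, lay below every array median, so the size of that change is uncertain.

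Fibulin-4 and fibrillin-1 took opposite directions. EFEMP2 (206580_s_at) was at 9.20, 9.52 and 9.22 with mir-429 at 24 h, against 9.45, 9.72 and 9.42 with control miRNA, and at 7.75, 7.88 and 7.92 with mir-429 at 48 h, against 8.55, 8.17 and 8.70 with control miRNA. The arrays overlapped at 24 h (-0.22 ± 0.13, limma adjusted p = 0.24) and were apart at 48 h, where EFEMP2 was 1.54-fold lower (-0.63 ± 0.13, adjusted p = 0.0021). That 48 h call held in 16 of 17 other fits and was lost in the fit of the compared arrays alone (adjusted p = 0.0665). The other EFEMP2 probe set, 209356_x_at, changed by -0.64 at 48 h (adjusted p = 0.0067). At 144 h EFEMP2 averaged 9.93 ± 0.07 in mir-429 cells and 10.03 ± 0.11 in control cells (SD, n = 3 each). FBN1 (202766_s_at) was at 9.06, 9.02 and 9.17 with mir-429 at 24 h, against 8.76, 8.64 and 8.58 with control miRNA, and at 8.47, 8.50 and 8.57 with mir-429 at 48 h, against 8.14, 7.72 and 8.22 with control miRNA. All mir-429 arrays were above all control arrays at both times, by 1.34-fold (0.42 ± 0.12, adjusted p = 0.0118) and 1.40-fold (0.49 ± 0.12, adjusted p = 0.00611). At 144 h FBN1 averaged 8.85 ± 0.18 in mir-429 cells and 9.03 ± 0.05 in control cells, which overlap. The FBN1 calls depended on the probe set: 202765_s_at was not called at 24, 48 or 144 h, with changes of -0.14, 0.47 and 0.33. The 24 h call was also lost without control replicate 3 (0.38, adjusted p = 0.0559) and with the 3′ to 5′ covariate (0.50, adjusted p = 0.127). The FBN1 call at 48 h held in 15 of 17 other fits (adjusted p up to 0.334), but not in the fit of the compared arrays alone.

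Osteopontin showed its difference at 48 h. SPP1 (209875_s_at) was at 8.99, 9.18 and 9.01 with mir-429 at 24 h, against 8.98, 9.44 and 9.05 with control miRNA, which overlap (-0.10 ± 0.15, limma adjusted p = 0.693). At 48 h it was at 9.24, 9.07 and 8.98 with mir-429, against 9.80, 10.49 and 10.07 with control miRNA. The control arrays were all higher, and SPP1 was 2.04-fold lower with mir-429 (-1.03 ± 0.15, adjusted p = 0.0001). At 144 h it was at 6.60, 6.65 and 6.82 with mir-429, against 6.94, 7.14 and 7.13 with control miRNA. These groups did not overlap either, but the change of -0.38 ± 0.15 was not called (adjusted p = 0.175). The 2 SPP1 probe sets had like changes at 48 h, but 1568574_x_at, with control arrays between 6.51 and 8.44, was not called (-0.97 ± 0.36, adjusted p = 0.0758).

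Tenascin-C was lower at 24 h by a small amount and at 48 h by a larger one. TNC (201645_at) was at 8.86, 8.99 and 8.81 with mir-429 at 24 h, against 9.16, 9.68 and 9.001 with control miRNA, and at 9.04, 8.99 and 9.23 with mir-429 at 48 h, against 10.26, 10.17 and 10.28 with control miRNA. The groups were barely apart at 24 h and about a unit apart at 48 h. TNC was 1.32-fold lower at 24 h (-0.40 ± 0.13, limma adjusted p = 0.0281) and 2.22-fold lower at 48 h (-1.15 ± 0.13, adjusted p = 3.73e-06). At 144 h it was at 9.37, 9.56 and 9.44 with mir-429 and 9.44, 9.46 and 9.48 with control miRNA (adjusted p = 0.996). The 24 h call on this probe set rested on single arrays: without control replicate 2 the change was -0.20 (adjusted p = 0.13), and without mir-429 replicate 1 or 3 it was -0.38 or -0.36 (adjusted p = 0.0808 and 0.0918). The fit with the covariate did not call it either (-0.42 ± 0.19, adjusted p = 0.261). That fit called 4.77% of genes, against 26.6% without the covariate, which did not overlap between the arms at 24 h. The dimmer 237169_at changed by -0.94 at 24 h and -1.90 at 48 h (adjusted p = 0.00263 and 2.75e-06). Its mir-429 means of 3.78 at 24 h and 2.81 at 48 h lay below every array median, so the sizes of these changes are uncertain. The other TNC probe set, 216005_at, changed by -0.77 at 24 h (adjusted p = 0.0486) and was not called at 48 h (-0.22, adjusted p = 0.646).

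SPARC, which binds collagen, was not called between the arms at any time. The gene (200665_s_at) was at 12.21, 12.19 and 12.18 with mir-429 at 24 h, against 12.07, 12.12 and 12.003 with control miRNA. These arrays did not overlap, but the change of 0.13 ± 0.12 was not called (limma adjusted p = 0.449). At 48 h SPARC averaged 11.43 ± 0.09 in mir-429 cells and 11.51 ± 0.31 in control cells, and at 144 h 11.80 ± 0.05 in mir-429 cells and 11.87 ± 0.09 in control cells (SD, n = 3 each), with overlap at both times. The 212667_at probe set changed by -0.24, 0.01 and 0.05 at 24, 48 and 144 h and was not called.

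Neither basement membrane member was called at 24 h. LAMB3 (209270_at, its only probe set) averaged 10.66 ± 0.23 in mir-429 cells and 10.56 ± 0.15 in control cells at 24 h, and 9.91 ± 0.25 in mir-429 cells and 9.86 ± 0.24 in control cells at 48 h (SD, n = 3 each). The arrays overlapped at both times. At 144 h LAMB3 was at 11.32, 11.29 and 11.23 with mir-429, against 10.90, 10.59 and 10.89 with control miRNA, with all mir-429 arrays higher. That change of 0.49 ± 0.15 missed the threshold (limma adjusted p = 0.0707), and it passed in 4 of 18 other fits, among them one without the 48 h arrays (0.49, adjusted p = 0.0339). NID1 (202007_at), whose product links laminin to collagen IV, was at 6.98, 7.05 and 7.07 with mir-429 at 24 h, against 7.30, 6.38 and 6.70 with control miRNA, which overlap (0.24 ± 0.15, adjusted p = 0.262). Control replicate 1 decided that result: without it NID1 was higher with mir-429 by 0.49 (adjusted p = 0.00318). At 48 h NID1 was at 7.45, 7.35 and 7.43 with mir-429, against 7.85, 8.02 and 7.78 with control miRNA. It was 1.39-fold lower without overlap (-0.47 ± 0.15, adjusted p = 0.0336), but the call held in 7 of 17 other fits and was lost when any of 5 of the 6 arrays was left out (adjusted p up to 0.104). The covariate gave -0.44 (adjusted p = 0.111). NID1 averaged 7.25 ± 0.06 in mir-429 cells and 7.31 ± 0.01 in control cells at 144 h. The second NID1 probe set, 202008_s_at, changed by 0.45, -0.55 and -0.04 at 24, 48 and 144 h and was not called.

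Over all probe sets of the members, 10 of the 23 tested were called at 24 h, 3 higher and 7 lower, where 18.3% of the 30553 probe sets tested on the array were called. At 48 h 16 of 23 were called, 3 higher and 13 lower, where 15.3% of the array was called. At 144 h 1 was called, where 4.29% of the array was called. For the change of the effect 6, 10 and 7 of 23 were called from 24 to 48 h, 48 to 144 h and 24 to 144 h, where 2.39%, 6.76% and 11.6% of the array were called. In mir-429 over untransfected cells 16, 18 and 4 were called at 24, 48 and 144 h (17.9%, 54.7% and 14.3% of the array), and in control over untransfected cells 11, 19 and 2 (29.8%, 52.7% and 0.236% of the array). Probe sets of a gene share its transcripts, and 7 of the 23 belong to FN1. The 3 not tested, 228421_s_at of EFEMP1, 235318_at of FBN1 and 1561082_at of NID1, lay above the array median on 0, 1 and 1 arrays.

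**Figure D3:**
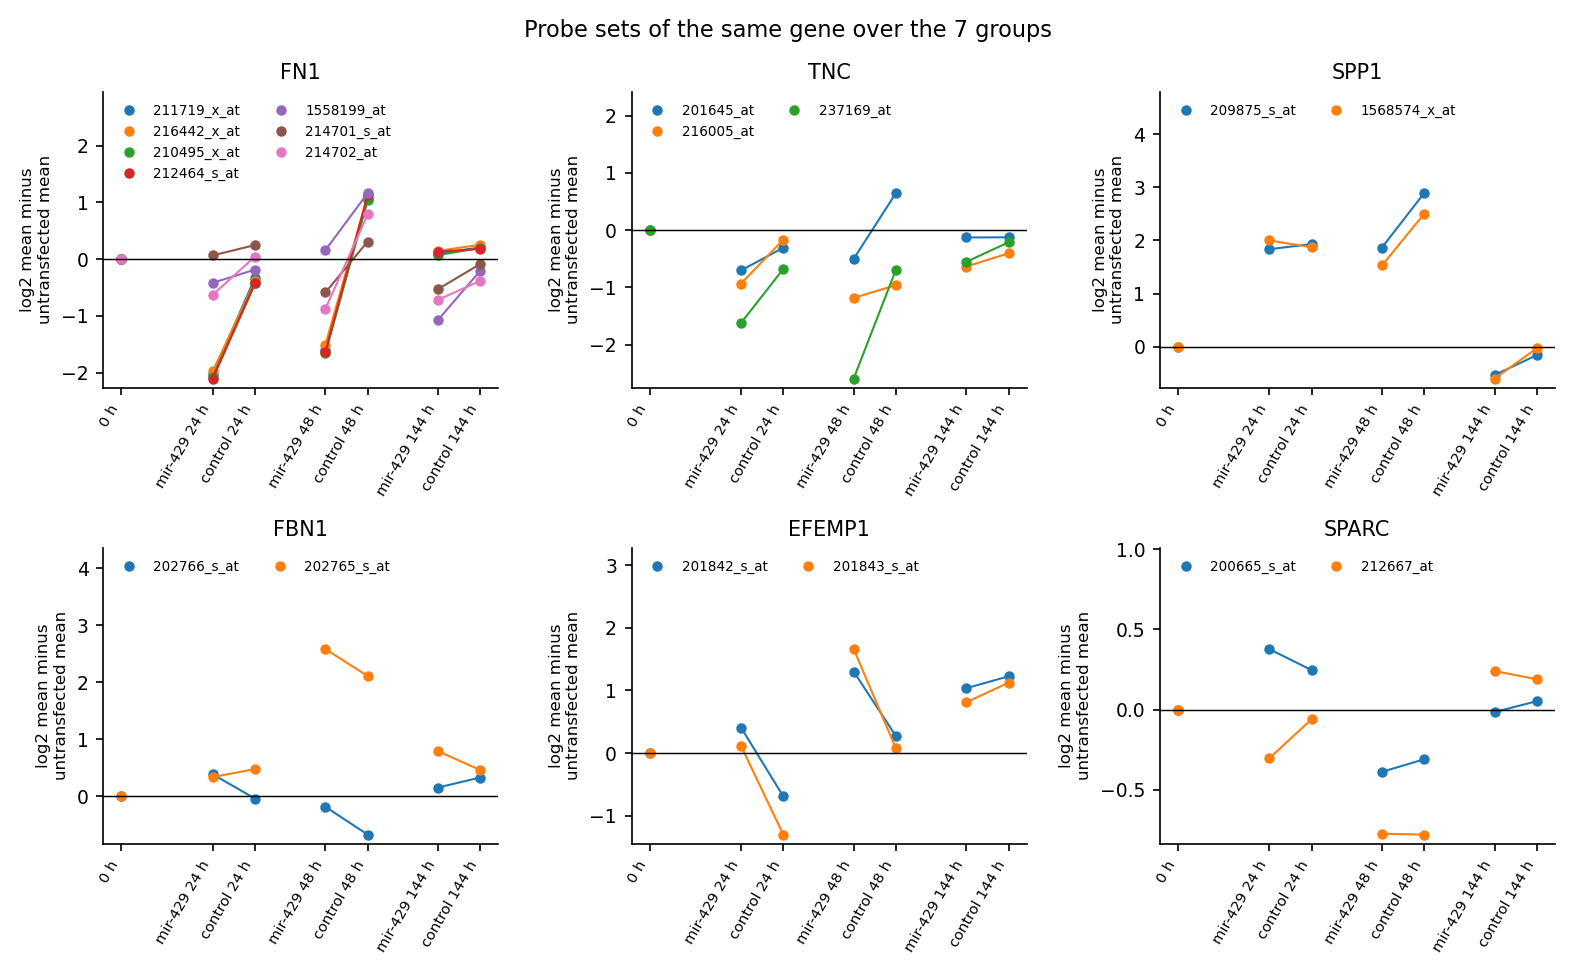
Mean log2 level of each tested probe set of 6 members in each group minus its mean in untransfected cells (y axis), over the 7 groups (x axis), with a line joining mir-429 to control cells of the same time. The 4 bright FN1 probe sets lie together between -2.11 and -1.97 in mir-429 cells at 24 h, whereas the FBN1 probe sets part at 48 h, 202765_s_at at 2.58 and 202766_s_at at -0.18 with mir-429.

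Whether the difference between the arms changed with time was tested as an interaction. Between 24 and 48 h the mir-429 effect on fibronectin, osteopontin and tenascin-C became more negative. Between 48 and 144 h the effects on fibronectin and tenascin-C moved up and those on fibulin-3 and fibrillin-1 moved down, all 4 toward 0. From 24 to 48 h 3 of 9 members were called, all lower, where 4.89% of genes were called, 1.75% higher and 3.14% lower. The change was -0.96 ± 0.17 for FN1 (limma adjusted p = 0.005), -0.93 ± 0.22 for SPP1 (adjusted p = 0.024) and -0.75 ± 0.18 for TNC (adjusted p = 0.0256). None of the 3 was called with the 3′ to 5′ covariate, where FN1 was at -1.09 (adjusted p = 0.196), SPP1 at -0.73 (0.627) and TNC at -0.71 (0.581), or in a fit of those arrays alone. With the covariate all 3 had an unadjusted p under 0.05, and 0.0155% of all genes were called. The SPP1 and TNC calls were each lost without any of 5 of the 12 arrays. From 48 to 144 h 4 of 9 were called, 2 higher and 2 lower, where 9.47% of genes were called, 3.84% higher and 5.62% lower. They were FN1 at 2.55 ± 0.17 (adjusted p = 3.58e-08), TNC at 1.15 ± 0.18 (adjusted p = 0.000507), EFEMP1 at -1.22 ± 0.16 (adjusted p = 7.88e-05) and FBN1 at -0.66 ± 0.17 (adjusted p = 0.0159). The covariate left the first 3 called but not FBN1, at -0.59 (adjusted p = 0.108). From 24 to 144 h 3 of 9 were called, where 18.6% of genes were called, 6.32% higher and 12.3% lower. Those were FN1 at 1.59 ± 0.17 (adjusted p = 1.45e-05), EFEMP1 at -1.29 ± 0.16 (adjusted p = 5.71e-05) and FBN1 at -0.60 ± 0.17 (adjusted p = 0.018). This contrast does not use the 48 h means, but the 48 h arrays still enter its pooled SE. A fit without the 48 h arrays also called 3 members, where 3034 of 12879 genes were called.

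Control cells set against untransfected cells give the background of transfection and time on which these differences rest. Osteopontin was far higher in control cells at 24 and 48 h and back near the untransfected level at 144 h. Fibulin-3 was lower at 24 h and higher at 144 h. At 48 h all 9 members differed from untransfected cells, 5 higher and 4 lower, where 54.5% of genes were called, 18.4% higher and 36.1% lower. With the 3′ to 5′ covariate 1 of 9 was called there, SPP1, where 0.590% of genes were called in that fit. At 24 h 5 of 9 were called, 1 higher and 4 lower, where 38.0% of genes were called, 18.3% higher and 19.8% lower. The covariate left 3 called at 24 h: FN1, LAMB3 and NID1 were lost (adjusted p = 0.0991, 0.114 and 0.12) and SPARC was gained (0.52, adjusted p = 0.00952). At 144 h 1 of 9 was called, higher, where 0.474% of genes were called, 0.280% higher and 0.194% lower. The mir-429 comparisons use the same control arrays and, against untransfected cells, the same untransfected arrays, so the values are given side by side and not compared by a count of shared calls.

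**Figure D4:**
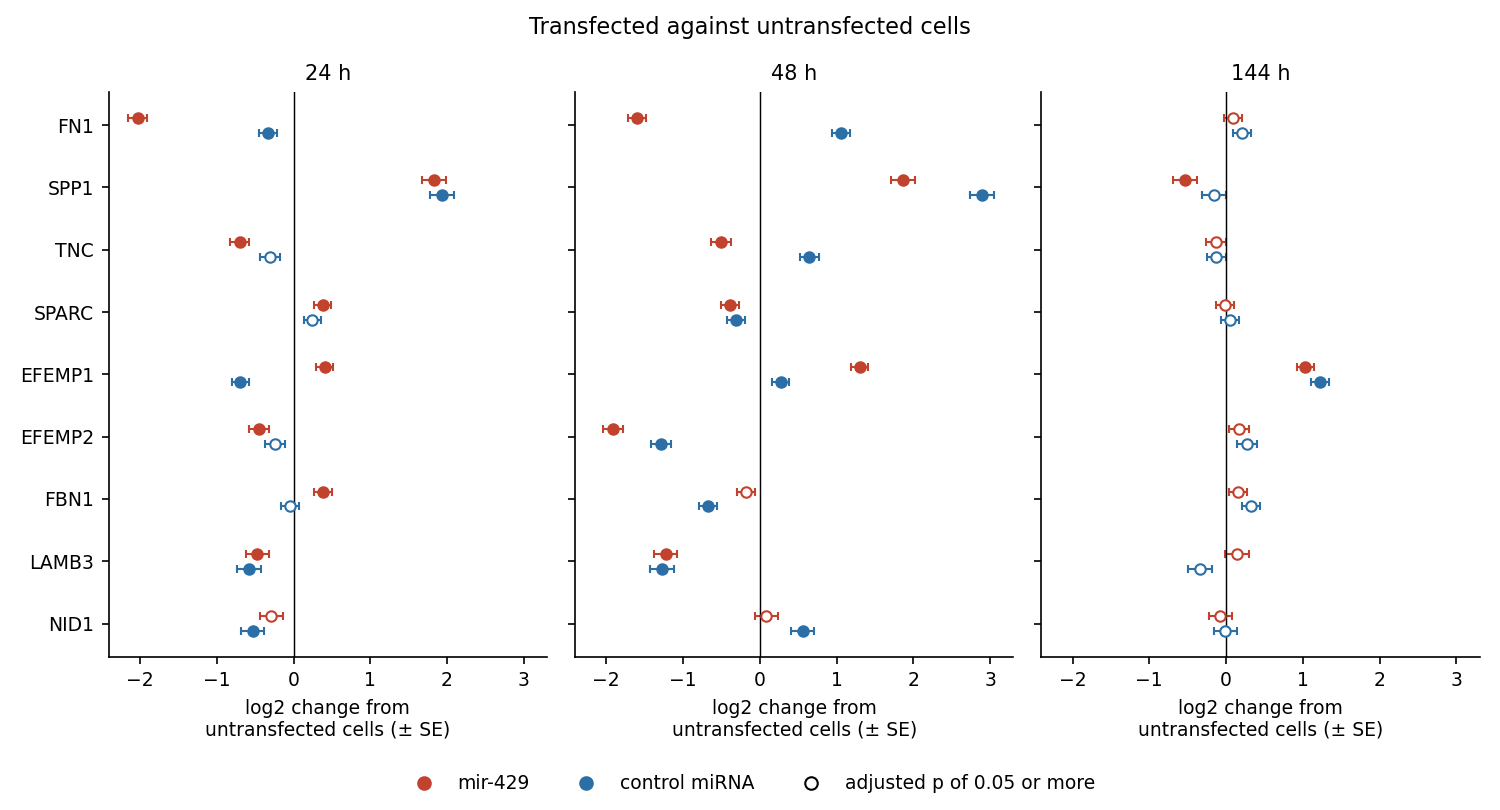
Log2 change from untransfected cells (x axis; point and SE from limma, n = 3 arrays per group) of mir-429 and control cells for each gene (y axis), with a panel for each time; open points have an adjusted p of 0.05 or more. At 24 h SPP1 lies at 1.83 with mir-429 and 1.93 with control miRNA, while FN1 lies at -2.03 with mir-429 and -0.33 with control miRNA.

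SPP1, at 7.07, 7.38 and 7.23 on the untransfected arrays, was 3.57-fold higher in mir-429 cells (1.83 ± 0.15, limma adjusted p = 1.29e-07) and 3.81-fold higher in control cells (1.93 ± 0.15, adjusted p = 1.78e-07) at 24 h. At 48 h it was 3.64-fold higher in mir-429 cells (1.87 ± 0.15, adjusted p = 2.61e-08) and 7.42-fold higher in control cells (2.89 ± 0.15, adjusted p = 5.7e-10). At 144 h SPP1 changed by -0.54 in mir-429 cells (adjusted p = 0.0221, lost without any of 4 of the 6 arrays) and by -0.16 in control cells (adjusted p = 0.684). Osteopontin was thus high in both transfected arms at 24 and 48 h. FN1, at 11.54, 11.30 and 11.32 on the untransfected arrays, changed by -2.03 in mir-429 cells and -0.33 in control cells at 24 h (adjusted p = 1.38e-09 and 0.0358), and by -1.60 in mir-429 cells and 1.06 in control cells at 48 h (adjusted p = 7.16e-09 and 1.09e-06). At 144 h it was at 0.09 in mir-429 cells and 0.21 in control cells (adjusted p = 0.626 and 0.433). The FN1 change in control cells at 24 h was lost without any of 4 of the 6 arrays (adjusted p up to 0.143). In the fit without a covariate the 6.33-fold difference between the arms at 48 h held a 3.04-fold lower level in mir-429 cells and a 2.08-fold higher level in control cells than before transfection. With the 3′ to 5′ covariate neither was called, at -1.94 ± 0.55 in mir-429 cells and 0.77 ± 0.48 in control cells (adjusted p = 0.108 and 0.418). TNC had the same pattern of signs at 48 h, at -0.50 in mir-429 cells and 0.65 in control cells (adjusted p = 0.00272 and 0.000352), and at 24 h it was at -0.70 in mir-429 cells and -0.31 in control cells (adjusted p = 0.000568 and 0.0657). Its other probe sets did not rise in control cells at 48 h, where 216005_at changed by -0.96 and 237169_at by -0.69 (adjusted p = 0.00499 and 0.00599).

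EFEMP1 was at 7.53, 7.35 and 7.43 on the untransfected arrays. It changed by 0.41 in mir-429 cells and -0.69 in control cells at 24 h (limma adjusted p = 0.0125 and 0.000142), and by 1.30 in mir-429 cells and 0.27 in control cells at 48 h (adjusted p = 3.88e-08 and 0.0473). At 144 h it changed by 1.03 in mir-429 cells and 1.22 in control cells (adjusted p = 2.1e-05 and 1.34e-05). Fibulin-3 was the 1 member still called against untransfected cells in the control arm at 144 h, 2.34-fold higher, and it was 2.05-fold higher in mir-429 cells. Its 48 h change in control cells was lost without any of 4 of the 6 arrays (adjusted p up to 0.148). EFEMP2 changed by -0.45 in mir-429 cells and -0.24 in control cells at 24 h (adjusted p = 0.0171 and 0.165) and by -1.92 with mir-429 and -1.29 with control miRNA at 48 h (adjusted p = 3.33e-09 and 3.67e-07). LAMB3 changed by -0.47 in mir-429 cells and -0.58 in control cells at 24 h (adjusted p = 0.0322 and 0.00644) and by -1.23 with mir-429 and -1.27 with control miRNA at 48 h (adjusted p = 2.81e-06 and 2.32e-06). Both genes were thus low in both arms at 48 h and were not called at 144 h, when EFEMP2 was at 0.17 with mir-429 and 0.27 with control miRNA, and LAMB3 at 0.14 with mir-429 and -0.34 with control miRNA.

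FBN1 changed by 0.38 in mir-429 cells and -0.04 in control cells at 24 h (limma adjusted p = 0.0232 and 0.815) and by -0.18 in mir-429 cells and -0.67 in control cells at 48 h (adjusted p = 0.189 and 0.000108). Its 202765_s_at probe set went the other way at 48 h, 2.58 higher in mir-429 cells and 2.11 higher in control cells (adjusted p = 4.23e-06 and 3.73e-05). The 2 probe sets therefore give opposite directions for FBN1 at 48 h. SPARC changed by 0.38 in mir-429 cells and 0.25 in control cells at 24 h (adjusted p = 0.0252 and 0.105), and by -0.39 with mir-429 and -0.31 with control miRNA at 48 h (adjusted p = 0.00901 and 0.0327). The control change at 48 h, between arrays that overlap, was lost without any of 3 of the 6 arrays and was -0.13 without control replicate 1 (adjusted p = 0.247). At 24 h in mir-429 cells 212667_at of SPARC changed by -0.30 (adjusted p = 0.0397), again against the other probe set, while at 48 h both were lower in both arms. NID1 changed by -0.29 in mir-429 cells and -0.53 in control cells at 24 h (adjusted p = 0.185 and 0.01), and by 0.09 with mir-429 and 0.56 with control miRNA at 48 h (adjusted p = 0.646 and 0.00446).

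In mir-429 cells 8 of 9 members were called against untransfected cells at 24 h, 4 higher and 4 lower, where 23.0% of genes were called, 11.7% higher and 11.3% lower. That count rested on single arrays: it was 4 and 3 without mir-429 replicate 1 and replicate 3, 5 without untransfected replicate 2 or 3, 6 without untransfected replicate 1 and 7 without mir-429 replicate 2. The calls of EFEMP1 and FBN1 were each lost in 3 of these 6 fits, and those of EFEMP2, SPARC and LAMB3 in 4. At 48 h 7 were called, 2 higher and 5 lower, where 56.7% of genes were called, 19.1% higher and 37.5% lower. At 144 h 2 were called, EFEMP1 higher and SPP1 lower, where 18.9% of genes were called, 6.62% higher and 12.3% lower. The 48 h comparisons with untransfected cells set arrays with a 3′ minus 5′ signal of 8.55 with mir-429 and 7.83 with control miRNA against arrays with 3.15. With that difference as a covariate limma called 0 of 9 members in mir-429 cells, against 7 without it (4 had an unadjusted p under 0.05), and 1 in control cells, against 9 without it. In that fit 0.559% of all genes were called in mir-429 cells at 48 h. The covariate was hardly separable from these groups, and the SE of FN1 in mir-429 cells rose from 0.12 to 0.55. The part of RNA quality in the lost calls could therefore not be tested.

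Genes that act with these glycoproteins were described by 4 lists, which share no gene with the 9 members. For list genes, rose and fell mean higher and lower in mir-429 than in control cells of the same time. The receptors of fibronectin, osteopontin and tenascin-C had 17 genes, 16 with a probe set and 12 tested. Of these 12, 1 was higher and 1 lower with mir-429 at 24 h, 3 higher and 1 lower at 48 h, and 1 higher at 144 h, where 26.6%, 20.6% and 5.85% of all genes were called at these times. ITGA5, the alpha chain of the main fibronectin receptor, was lower with mir-429 by 0.63 at 24 h and higher by 0.45 at 144 h (limma adjusted p = 0.000791 and 0.0304). The cell surface proteoglycans SDC2 and SDC1 rose, SDC2 by 0.80 at 24 h and 1.12 at 48 h and SDC1 by 0.75 at 48 h (adjusted p = 3e-04, 7.86e-06 and 0.000622), and the vitronectin receptor chain ITGB5 rose by 0.52 at 48 h (adjusted p = 0.000849). The median of the 12 was 0.05, -0.17 and 0.06 at 24, 48 and 144 h, against -0.02, -0.01 and -0.04 over all genes.

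Laminins and other basement membrane and hemidesmosome genes had 24 genes, 20 with a probe set and 19 tested, of which 2 were higher and 2 lower at 24 h, 4 higher and 2 lower at 48 h, and 1 higher and 1 lower at 144 h. Of all genes tested 26.6%, 20.6% and 5.85% were called at these times. The laminin chains went apart. LAMA5 was higher with mir-429 at every time, by 0.81, 1.31 and 0.83 (limma adjusted p = 0.000829, 6.06e-06 and 0.00322). LAMA1 was lower by 0.93 at 24 h (adjusted p = 0.00043) and LAMC1 was lower by 1.05 at 48 h (adjusted p = 4.34e-06). The laminin receptor chain ITGA6 rose by 0.62 at 24 h and 0.67 at 48 h (adjusted p = 0.0071 and 0.00457). NID2, the other nidogen, fell by 0.79 at 144 h (adjusted p = 0.0318). The list's median was -0.05, 0.06 and 0.16.

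Other matrix glycoproteins were 59 genes, 57 with a probe set and 39 tested, of which 4 were higher and 5 lower at 24 h, 3 higher and 10 lower at 48 h, and 2 higher and 4 lower at 144 h. The shares of all genes called were 26.6%, 20.6% and 5.85%. Thrombospondin-1 (THBS1) was higher with mir-429 by 1.06 and 1.01 at 24 and 48 h and lower by 1.35 at 144 h (limma adjusted p = 1.03e-05, 1.28e-05 and 4.76e-06). CCN2 rose by 0.77 and FREM2 by 0.67 at 24 h (adjusted p = 0.000838 and 0.00174), and matrilin-3 (MATN3) fell by 1.45 at 48 h (adjusted p = 3.27e-05). SPOCK1, whose mean lay below the array median in mir-429 cells at 48 h, was lower there by at least 0.84 (adjusted p = 4.26e-05). CCN3 fell by 0.78 and TGFBI, which carries fasciclin domains, by 0.66 at 144 h (adjusted p = 0.000283 and 9.09e-05). The list's median was -0.09, -0.17 and -0.19.

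Enzymes and factors of matrix assembly were 18 genes, 17 of them tested, of which 3 were higher and 5 lower at 24 h, 3 higher and 2 lower at 48 h, and 1 lower at 144 h, beside 26.6%, 20.6% and 5.85% of all genes. Lysyl oxidase (LOX), which cross-links collagen and elastin, fell by 2.09 and 2.73 at 24 and 48 h (limma adjusted p = 9.36e-09 and 1.37e-10), while its relatives LOXL2, by 0.43 and 0.71 (adjusted p = 0.00552 and 7.19e-05), and LOXL3, by 1.39 at 48 h (adjusted p = 0.000234), rose. PLOD2, a collagen lysyl hydroxylase, fell by 0.55 at 24 h (adjusted p = 0.001), and FAM20C, the secretory pathway kinase that phosphorylates osteopontin, fell by 0.88 at 144 h (adjusted p = 0.00158). The list's median was -0.04, 0.21 and -0.08.

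**Figure D5:**
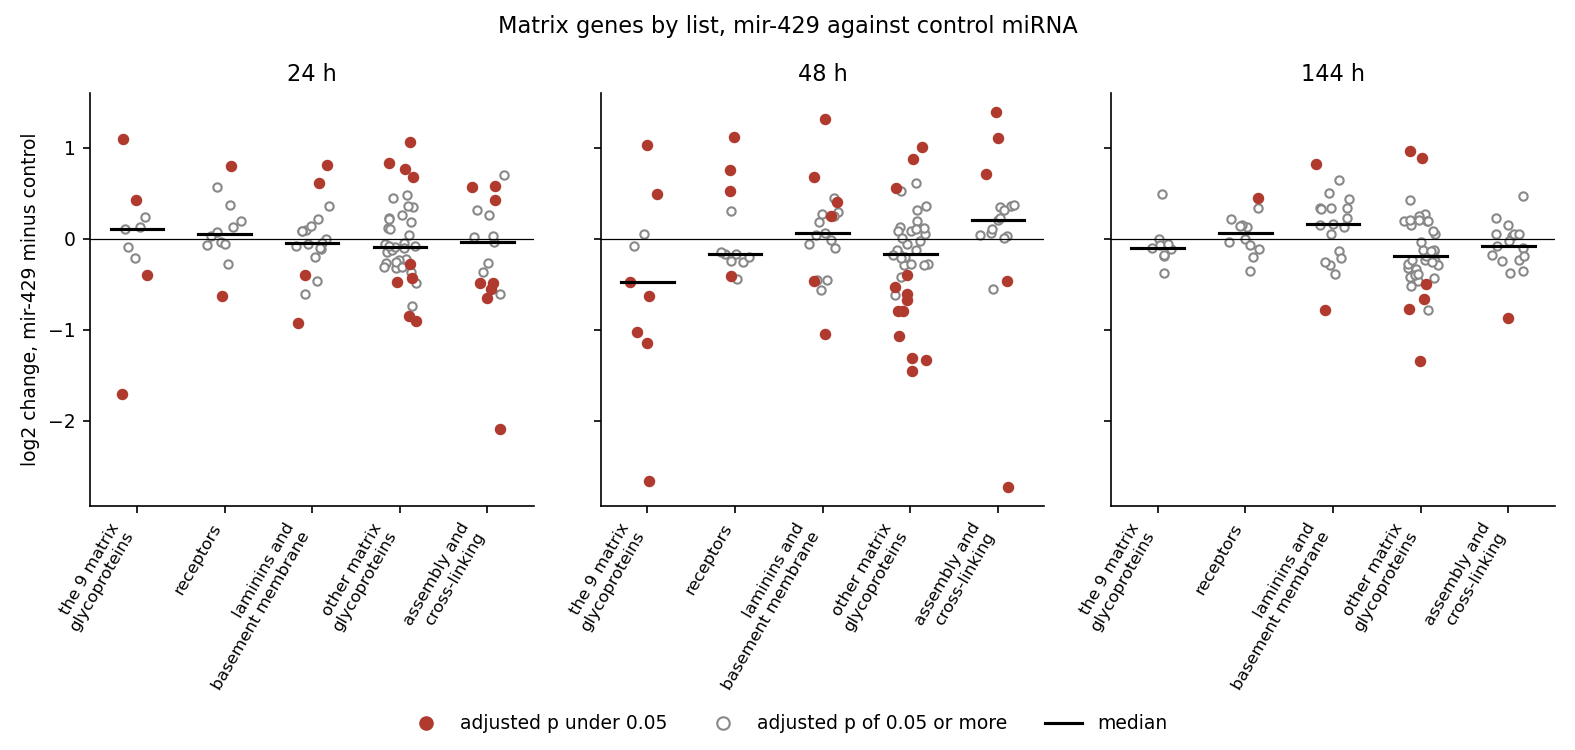
Log2 change of mir-429 over control cells (y axis) for the 9 glycoproteins and for the tested genes of the 4 lists (x axis) at 24, 48 and 144 h; points are genes, filled where limma's adjusted p is under 0.05, and bars are medians. Members reach -2.66 at 48 h (FN1), where LOX in the assembly list reaches -2.73, and the medians of the 4 lists lie between -0.19 and 0.21.

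The genes whose levels followed each member most closely were ranked by Pearson's r over the 21 arrays, among 12878 others. These values are a description of arrays that share 7 groups and a common scaling, and arrays of a group are not independent points. FN1 was followed by CHRDL1, an antagonist of bone morphogenetic proteins (r = 0.946 over 21 arrays and 0.971 over the 7 group means), STRADB (0.940 and 0.986) and LOX (0.930 and 0.944). SPP1 was followed by HMGA2 (0.972 and 0.986), KIDINS220 and PTTG1IP, and TNC by CALML4 (0.915 and 0.961), KDM7A and ANK3. SPARC was followed by BLOC1S3 (0.945 and 0.974), TBC1D20 and CLCN5. EFEMP1 had the loosest followers, TM4SF18 (0.907 and 0.929), DHX32 and the glucose transporter SLC2A1 (0.864 and 0.912). EFEMP2 was followed by AEBP1, a collagen-binding matrix protein (0.970 and 0.988), ANKS6 and P3H3, FBN1 by UMPS (0.965 and 0.982), PMPCB and SFXN4, LAMB3 by TPM2 (0.968 and 0.979), SEC31B and DGKA, and NID1 by FRMD6 (0.930 and 0.961), RPL39 and CAPZA2.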

How the data were processed

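The deposited values are RMA log2 expression values for each probe set (RMA is named in the submitters' processing notes; its software is not given in the sources used here). Values between 0.75 and 14.97 were used without rescaling, and array medians were 3.95 to 4.29. Per the labels' protocols, total RNA went through a 3′-primed amplification and biotin labelling. Of 54675 probe sets, the platform annotation gave 1 symbol to 41097, more than 1 to 1801 and no symbol to 11777. Names were brought up to date by Entrez identifier with RefSeq GRCh38.p14 (99.9% matched), and no member probe set carried several symbols. A gene was its probe set with the highest mean, tested if it exceeded the median of its array on 3 or more arrays (12879 genes; 6896 set aside). The same filter left 30553 probe sets for a separate fit.

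Models were fitted with limma 3.58.1 (lmFit, eBayes; R 4.3.3), estimating 7 group means, 14 residual and 3.93 prior degrees of freedom, two-sided, with Benjamini-Hochberg adjustment over all genes or probe sets tested and a threshold of 0.05. Values are log2 changes ± SE, and fold is 2 to the size of that change. The SE pools all groups, while the SD of differences between arrays of a group was 0.39 to 0.47 in control cells at 48 h and 0.17 to 0.25 in untransfected cells. The number of arrays limits the precision. Where the mean of a list gene lay below the array medians of a group, its values were raised to the median and the change given as a bound. Dim probe sets of the members are given with the fitted change. The members were always named, with up to 3 called genes of smallest p per list at each time and the 3 genes most correlated with each member. Members, lists and tests were chosen with earlier results of these data known. Replicate numbers were not used to pair the samples. Deviations of same-numbered mir-429 and control arrays correlated between -0.13 and 0.28, over 0.1 in 3 of 9 pairs. Differently numbered arrays were not compared in this way, so the values do not settle whether the samples were paired. Alternatives changed the scaling, the probe set per gene, the filter, the arrays fitted, the weighting, a 3′ to 5′ covariate, a replicate block and each array left out.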

Additional observations from a re-analysis of the deposited data

Results flagged for a closer look

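The difference between mir-429 and control cells was itself tested between times, and 10 such changes of members passed limma's adjusted p of 0.05 (log2 scale, later minus earlier effect, 3 arrays in each of the 4 groups of a test). Fibronectin was among them in each pair of times. FN1 changed by -0.96 from 24 to 48 h (adjusted p = 0.005), by 2.55 from 48 to 144 h (adjusted p = 3.58e-08) and by 1.59 from 24 to 144 h (adjusted p = 1.45e-05). TNC changed by -0.75 from 24 to 48 h (adjusted p = 0.0256) and by 1.15 from 48 to 144 h (adjusted p = 0.000507), and SPP1 by -0.93 from 24 to 48 h (adjusted p = 0.024). Fibulin-3 and fibrillin-1, higher than in control cells at 24 and 48 h, were not called between the arms at 144 h. EFEMP1 changed by -1.22 from 48 to 144 h (adjusted p = 7.88e-05) and by -1.29 from 24 to 144 h (adjusted p = 5.71e-05), and FBN1 by -0.66 (adjusted p = 0.0159) and -0.60 (adjusted p = 0.018). The FBN1 change from 24 to 144 h was lost without 1 of the 12 arrays (adjusted p = 0.0528). The FBN1 change from 48 to 144 h (-0.59, adjusted p = 0.108) and all 3 changes from 24 to 48 h were not called in the fit with a 3′ to 5′ covariate.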

How the results depend on the processing

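Of 2061 values of members under other settings, 1858 kept their direction and their side of the threshold. With the direction kept, 116 lost a call and 30 gained a call. A further 52 changed sign without a call in either fit, and 5 changed sign with a call in the main or the other fit. The replicate block left the mir-429 over control counts at 4, 7 and 0 members at 24, 48 and 144 h, with 3, 5 and 3 members for the changes between times. The 3′ to 5′ covariate called 2 members in mir-429 over control at 24 h (4 without it), 0 in the change from 24 to 48 h (3), 3 and 1 in control over untransfected at 24 and 48 h (5 and 9) and 0 in mir-429 over untransfected at 48 h (7). Fitting only the arrays compared called 4 members in mir-429 over control at 48 h (7), 1 at 144 h (0), 0 in the change from 24 to 48 h and 3 in control over untransfected at 24 h. In mir-429 over control at 144 h 1 member was called without the 48 h arrays, 2 with array weights and 1 with trend and robust set. Array weights called 4 in control over untransfected at 144 h (1). With the mean of a gene's probe sets 1 member was called in the change from 24 to 48 h and 5 in mir-429 over untransfected at 24 h (8). With it TNC in control over untransfected cells at 48 h turned to -0.34 and FBN1 turned to 0.22 in control and 0.51 in mir-429 over untransfected cells at 48 h. With the covariate SPARC over untransfected cells at 48 h turned to 0.89 ± 0.37 in control and 1.00 ± 0.42 in mir-429 cells. Neither was called (limma adjusted p = 0.218 and 0.237). Leaving out 1 array gave 1 to 3 members in the change from 24 to 48 h, 3 to 7 in mir-429 over untransfected at 24 h (8 with all arrays) and 1 to 2 at 144 h. The cause of these changes was not tested.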

Other observations

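Among the 9 members, levels over the 21 arrays ran most closely together for FN1 and TNC (Pearson's r = 0.887) and for EFEMP2 and LAMB3 (r = 0.872), and most oppositely for SPP1 and LAMB3 (r = -0.818). EFEMP1 had no member with r above 0.321, its value with NID1. The arrays share 7 groups, a common scaling and, at 48 h, a larger 3′ minus 5′ signal difference.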
